A study of Mus musculus with 6 samples.

Results

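The 7 genes described here, Nlrp3, Nlrc4, Aim2, Pycard, Casp1, Casp4 and Gsdmd, encode the core machinery of inflammasomes and pyroptosis. They were taken by gene symbol from a table of 16763 genes, where all 7 were present, and all 7 passed the filter on low counts that left 12891 genes for testing. RNA came from tumors that 4T1 cells, a mammary carcinoma line of BALB/c mice, had formed in animals of that strain. One group of tumors was from animals treated with DMDD liposome, DMDD being an agent named by its abbreviation carried in lipid vesicles, and the other was the model group, which carried 4T1 tumors and is not labelled with that agent. Each group had 3 libraries. The labels call the animals male, state no dose, duration or age, and name no allele in either group. The sample descriptions say rat, while the organism field, the strain and the gene symbols are of mouse. Which animal a library came from is not labelled, so the p-values rest on the spread among these 6 libraries, and that spread may be technical.

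An inflammasome forms when a sensor protein in the cytosol meets a danger or microbial signal and, usually through the adaptor ASC, gathers and activates the protease caspase-1. Caspase-1 then cuts the precursors of interleukin-1β and interleukin-18 and frees the pore-forming part of gasdermin D, which opens the plasma membrane in the lytic death called pyroptosis. Caspase-11, the product of mouse Casp4, binds bacterial lipopolysaccharide and cuts gasdermin D without a sensor complex. Most of these proteins are abundant in macrophages and other myeloid cells, and part of their control is by protein assembly and cleavage, which RNA levels do not measure.

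Libraries held 13037500 to 15616840 counts, so that 3 counts stood for 0.193 to 0.230 CPM (TMM-scaled CPM, a count relative to the size of its library). Epithelial markers of the tumor cells were present in every library, with a summed level over 11 of 11 listed genes of 3888 to 4868 CPM in DMDD liposome tumors and 4255 to 7150 CPM in model tumors. Macrophage and monocyte markers, 15 of 15 measured, summed to 3081 to 4148 CPM in DMDD liposome tumors and 1625 to 2970 CPM in model tumors, so the groups did not overlap for this list, and none of its genes was at 0 in any library. T and NK cell markers, 11 of 11 measured, summed to 148, 44.0 and 160 CPM in DMDD liposome replicates 1 to 3 and to 62.5, 58.2 and 89.1 CPM in model replicates 1 to 3. Neutrophil markers, 12 of 12 measured, summed to 1195 to 1690 CPM in DMDD liposome tumors and 925 to 1226 CPM in model tumors. The abundant Lcn2 and Mmp9 made up most of that sum, and 6 of the 11 tested neutrophil markers had a log2 fold change below 0, with a median of -0.02 and S100a9 at -0.93. Skeletal muscle markers summed to 10.9 to 229 CPM in DMDD liposome tumors and 28.7 to 32.7 CPM in model tumors, and fat cell markers to 16.1 to 115 CPM in DMDD liposome tumors and 23.0 to 29.9 CPM in model tumors. Model replicate 2 carried skin keratinocyte RNA, with 237 CPM over 9 listed genes against 8.15 to 14.96 CPM in each other library. Since these are bulk tumors, fewer cells of a type and less RNA per cell cannot be told apart.

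RefSeq upstream sequence on build GRCm38.p6 was found for 6 of the 7 genes, in 8 windows of the 250 bases before an annotated start. The 4 windows shown are those of the adaptor gene, of the sensors whose levels differed most clearly between the groups in relation to their spread, and of Casp4 for contrast, each written 5′ to 3′ on the strand of its gene. Where a gene has several starts, the window with the lowest coordinates is shown. Capitals mark matches on either strand to any of 6 motifs: PU.1 (GAGGAAGT), the NF-kB consensus, the IRF core (GAAANNGAA), AP-1 (TGANTCA), Sp1 (GGGCGG) and the TATA box (TATAAA). The motifs were chosen with the sequences in view, and a match describes letters only.
Pycard, chr7:127993868-127994117, minus strand: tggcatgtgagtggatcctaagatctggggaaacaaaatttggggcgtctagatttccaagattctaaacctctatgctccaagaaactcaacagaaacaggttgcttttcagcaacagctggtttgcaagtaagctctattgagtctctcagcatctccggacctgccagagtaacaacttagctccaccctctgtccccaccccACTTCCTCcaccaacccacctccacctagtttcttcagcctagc
Aim2, chr1:173420354-173420603, plus strand: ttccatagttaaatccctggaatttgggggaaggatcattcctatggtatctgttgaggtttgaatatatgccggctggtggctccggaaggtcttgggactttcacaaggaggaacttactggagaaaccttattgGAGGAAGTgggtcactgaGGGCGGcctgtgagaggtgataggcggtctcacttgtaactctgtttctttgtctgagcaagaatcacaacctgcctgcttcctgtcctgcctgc
Nlrp3, chr11:59541319-59541568, plus strand: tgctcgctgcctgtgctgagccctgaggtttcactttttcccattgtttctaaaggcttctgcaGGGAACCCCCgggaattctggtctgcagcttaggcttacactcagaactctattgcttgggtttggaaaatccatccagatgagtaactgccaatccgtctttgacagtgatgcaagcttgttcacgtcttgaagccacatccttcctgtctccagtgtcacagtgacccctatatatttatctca
Casp4, chr9:5308599-5308848, plus strand: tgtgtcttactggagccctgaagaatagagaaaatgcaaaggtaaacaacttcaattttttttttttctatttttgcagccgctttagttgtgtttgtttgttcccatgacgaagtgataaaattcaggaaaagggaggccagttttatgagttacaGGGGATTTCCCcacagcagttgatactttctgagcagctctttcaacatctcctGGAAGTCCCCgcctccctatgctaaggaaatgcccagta
The PU.1 letters, named for a transcription factor of myeloid cells, lay 37 to 44 bases upstream of the Pycard start on the opposite strand and 106 to 113 bases upstream of the Aim2 start on the same strand. They were in 2 of the 8 windows of these genes and in 2.44% of 32851 windows of the same length over all genes. The NF-kB consensus was in 3 of the 8 windows, against 5.0% of all windows. In the Casp4 window 2 of its matches overlap each other. The 2 Casp4 windows, both among these 3, share most of their bases. Because the motifs were chosen with the sequences in view, the shares of windows given here do not test for enrichment. The Sp1 letters were in 1 of the 8 windows, that of Aim2 (32.7% of all windows). The IRF, AP-1 and TATA letters were in 0 of the 8 windows, against 7.13%, 6.75% and 12.4% of all windows.

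The question put to the comparison was how tumor RNA differed after DMDD liposome treatment. The adaptor gene Pycard stood at 1.77-fold of the model level in DMDD liposome tumors, and the sensor genes Nlrp3, Nlrc4 and Aim2 at 1.32-fold, 1.45-fold and 1.39-fold. The caspase genes Casp1 and Casp4 and the pore-forming gene Gsdmd stood at 1.05-fold, 0.923-fold and 1.04-fold. None of the 7 passed edgeR's quasi-likelihood test with Benjamini-Hochberg adjustment over all 12891 genes, in which 0% were called, and the smallest adjusted p among the members was 0.626, for Pycard. At an unadjusted p under 0.05, 1 of the 7 was found by edgeR, against 7.65% of all genes tested. That count was 3 without DMDD liposome replicate 2 (8.68% of all genes in the same fit), 2 without model replicate 1 (16.3%) and 2 without model replicate 2 (5.54%). Separation of all 3 DMDD liposome libraries from all 3 model libraries was seen for 2 of the 7, Pycard and Nlrp3, both higher in DMDD liposome tumors. Over all genes tested, 7.21% separated in that direction, 5.67% in the other and 12.9% in either. The members' median log2 fold change was 0.40, with 6 of 7 above 0, beside a median of 0.01 over all genes tested, of which 51.2% were above 0, and it was 0.25 without DMDD liposome replicate 1. The authors' deposited table also called 0 of the 7 at an adjusted p under 0.05, where 0.346% of all its genes were called, and DESeq2 run on the same counts called 0 of the 7 and 0.408% of the genes it adjusted.

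**Figure D1:**
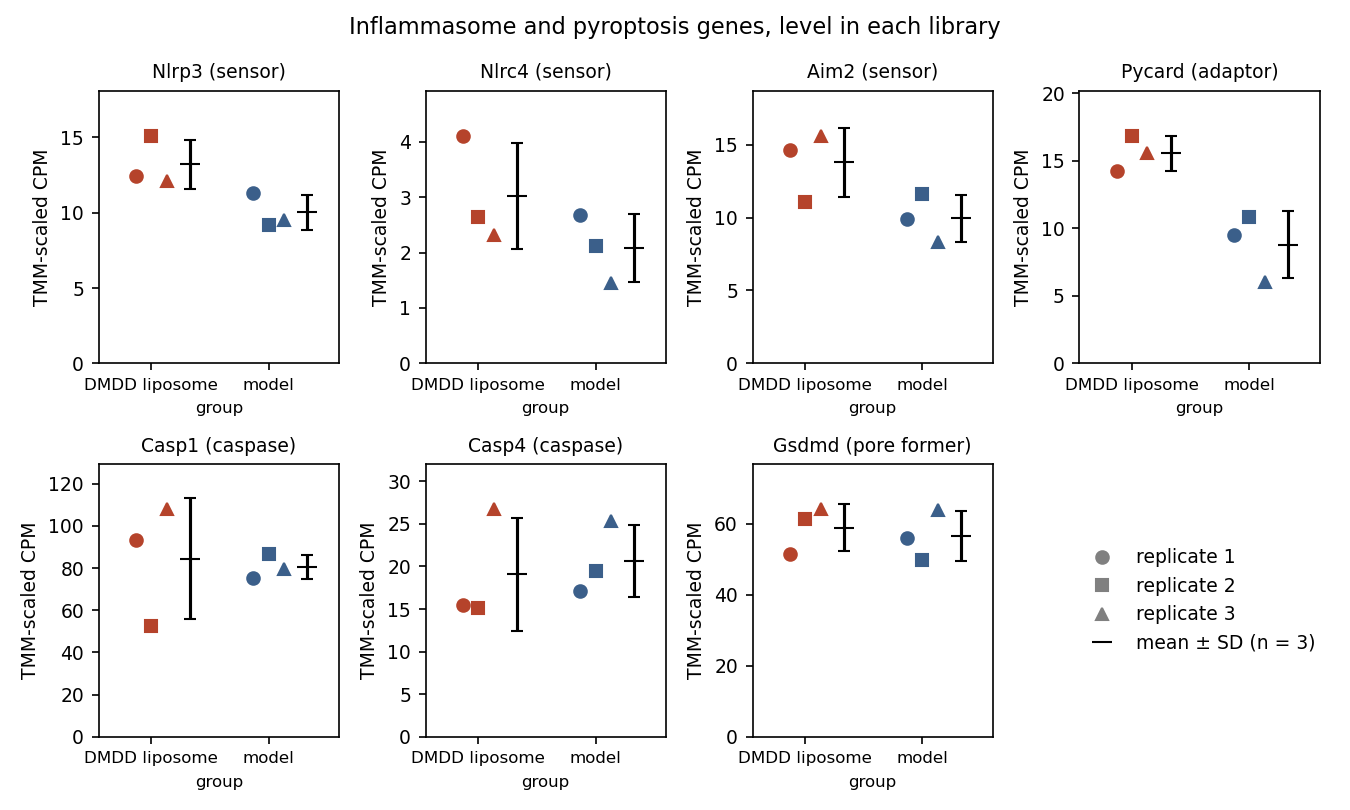
Level of each of the 7 genes in every library, in TMM-scaled CPM on axes that start at 0, with DMDD liposome libraries on the left of each panel and model libraries on the right; marker shapes are replicates and the bars show mean ± SD (n = 3). The DMDD liposome points lie wholly above the model points for Pycard (14.2 to 16.8 CPM against 6.04 to 10.8 CPM) and Nlrp3 (12.1 to 15.1 CPM against 9.21 to 11.3 CPM), and the groups overlap for the other 5 genes.

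Nlrp3 encodes the sensor that responds to potassium efflux, crystals and extracellular ATP. Its level was 12.5, 15.1 and 12.1 CPM in DMDD liposome replicates 1 to 3 and 11.3, 9.21 and 9.52 CPM in model replicates 1 to 3. The groups did not overlap, although the lowest DMDD liposome library, replicate 3, exceeded the highest model library, replicate 1, by less than 1 SD of either group (13.2 ± 1.63 CPM in DMDD liposome and 10.02 ± 1.15 CPM in model; SD, n = 3 each). The log2 fold change was 0.40 ± 0.18 (SE), with a 95% interval from -0.03 to 0.83 that is not adjusted for the number of genes (edgeR adjusted p = 0.647). Leaving out 1 library at a time gave edgeR values from 0.29, without DMDD liposome replicate 2, to 0.50, without model replicate 1.

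Aim2 encodes a sensor of double-stranded DNA in the cytosol. It measured 14.7, 11.1 and 15.6 CPM in DMDD liposome replicates 1 to 3 and 9.89, 11.6 and 8.33 CPM in model replicates 1 to 3. DMDD liposome replicate 2 lay inside the model range, below model replicate 2, and the remaining pair exceeded every model library. The log2 fold change was 0.47 ± 0.21 (SE, 95% interval from -0.02 to 0.96, edgeR adjusted p = 0.644). It was 0.60 without DMDD liposome replicate 2 and 0.35 without model replicate 3. In the RefSeq table Aim2 overlaps Cadm3, which encodes an adhesion molecule, and no source used here states whether the counting used strand.

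Nlrc4 encodes the sensor that, joined to a NAIP protein, answers bacterial flagellin and secretion system parts. It was the scarcest of the 7, with 58, 35 and 34 counts in DMDD liposome replicates 1 to 3 and 35, 33 and 22 counts in model replicates 1 to 3. The high library was DMDD liposome replicate 1 and the low one model replicate 3, and the other 4 libraries lay between 33 and 35 counts. The log2 fold change of 0.54 ± 0.38 (SE, 95% interval from -0.35 to 1.42, edgeR adjusted p = 0.763) was 0.25 without DMDD liposome replicate 1.

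Pycard encodes ASC, the adaptor whose pyrin and CARD domains join a sensor to caspase-1 and which gathers into a single large speck per cell. It had 201, 223 and 229 counts in DMDD liposome replicates 1 to 3 (14.2, 16.8 and 15.6 CPM) and 124, 168 and 92 counts in model replicates 1 to 3 (9.502, 10.8 and 6.04 CPM). The groups did not overlap, and the DMDD liposome libraries were close together while model replicate 3 lay below the rest. Mean levels were 15.6 ± 1.30 CPM in DMDD liposome and 8.79 ± 2.47 CPM in model (SD, n = 3 each). The fold of 1.77 had a 95% interval from 1.2 to 2.61 that is not adjusted for the number of genes, and the log2 fold change of 0.82 ± 0.24 (SE) had an edgeR p of 0.00986 before adjustment and an adjusted p = 0.626 after it. By that p Pycard ranked at 170 of 12891 genes. The edgeR log2 fold change ran from 0.60, without model replicate 3, to 0.996, without model replicate 2. The authors' deposited table lists Pycard at -0.82, taken as log2 of model relative to DMDD liposome, with p = 0.00282 and adjusted p = 0.196.

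Casp1 encodes the protease at the center of the inflammasome. It measured 93.3, 52.5 and 108 CPM in DMDD liposome replicates 1 to 3 and 75.2, 86.6 and 79.5 CPM in model replicates 1 to 3. The model libraries were close together, with an SD of 5.75 CPM, and lay between the extremes of the DMDD liposome group, whose SD was 28.7 CPM. DMDD liposome replicate 2, the lowest of all 6, was also the lowest for T and NK cell markers (44.0 CPM), while replicates 1 and 3, the highest for Casp1, were the highest for those markers (148 and 160 CPM). Skeletal muscle, epithelial and dendritic cell markers were likewise lowest in DMDD liposome replicate 2 (10.9, 3888 and 67.5 CPM). Fibroblast, endothelial, fat cell and neutrophil markers had their highest sums there (10715, 389, 115 and 1690 CPM). By mean centred log2 CPM the neutrophil list was instead highest in model replicate 1 (0.37, beside 0.14 in DMDD liposome replicate 2). The part of any of these cells in the Casp1 level was not tested. The log2 fold change was 0.07 ± 0.24 (SE, 95% interval from -0.49 to 0.64, edgeR adjusted p = 0.958). Without DMDD liposome replicate 2 it was 0.32, and without DMDD liposome replicate 3 it was -0.14, so no direction is given for this gene.

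Casp4 encodes caspase-11, the receptor and protease of the route that answers lipopolysaccharide inside the cell. It measured 15.4, 15.1 and 26.7 CPM in DMDD liposome replicates 1 to 3 and 17.2, 19.5 and 25.4 CPM in model replicates 1 to 3. Replicate 3 was the highest library of each group. DMDD liposome replicates 1 and 2 lay below the model range, and DMDD liposome replicate 3 lay above it. The log2 fold change was -0.12 ± 0.26 (SE, 95% interval from -0.73 to 0.50, edgeR adjusted p = 0.925), and it ran from -0.44 without DMDD liposome replicate 3 to 0.05 without model replicate 3. Casp1, Casp4 and Casp12 are neighbors on chromosome 9 in the RefSeq table.

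Gsdmd encodes gasdermin D, whose amino-terminal part forms the pore. It was the steadiest member, at 51.5, 61.4 and 64.1 CPM in DMDD liposome replicates 1 to 3 and 56.1, 49.9 and 63.9 CPM in model replicates 1 to 3. The 2 groups covered nearly the same range. The log2 fold change of 0.06 ± 0.14 (SE) had a 95% interval from -0.26 to 0.38, that is from 0.836-fold to 1.30-fold (edgeR adjusted p = 0.925). Over the 6 libraries Gsdmd spanned 0.36 in log2 CPM, where Pycard spanned 1.46, Nlrc4 1.42, Casp1 1.04, Aim2 0.89, Casp4 0.82 and Nlrp3 0.70.

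**Figure D2:**
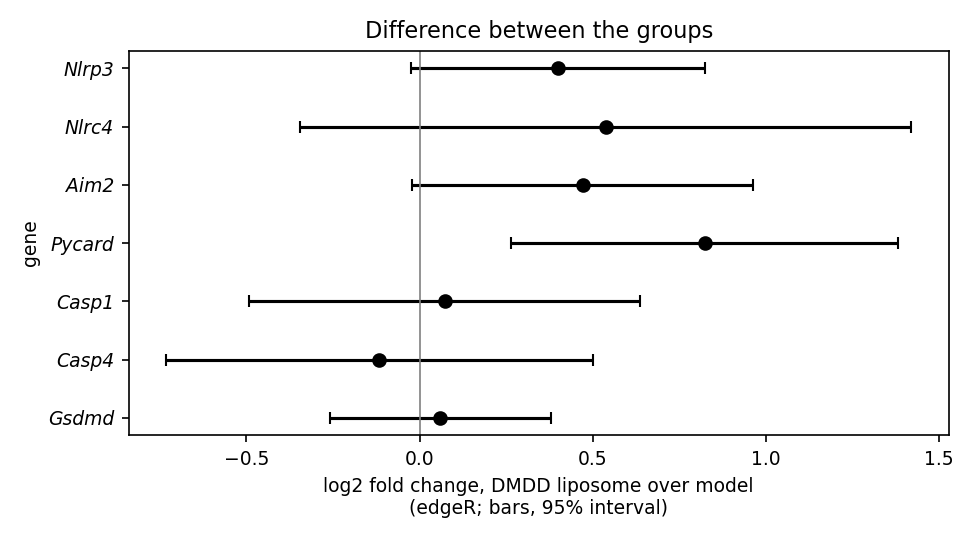
Log2 fold change of DMDD liposome over model for each gene (x axis) with its 95% interval from edgeR, not adjusted for the number of genes. The interval of Pycard runs from 0.26 to 1.38 and lies above 0, those of Nlrp3 and Aim2 reach just below 0, and those of Nlrc4, Casp1, Casp4 and Gsdmd span it.

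Levels of different genes were compared per length, in the authors' FPKM (counts relative to gene length and library size). Casp1 was highest, at 57.0 ± 19.9 FPKM in DMDD liposome and 53.3 ± 4.08 FPKM in model (SD, n = 3 each), followed by Gsdmd at 33.1 ± 3.32 FPKM in DMDD liposome and 31.3 ± 3.44 FPKM in model. Casp4 came next at 13.4 ± 4.64 FPKM in DMDD liposome and 14.3 ± 2.71 FPKM in model. These 3 kept that order in 6 of 6 libraries. Aim2 followed at 4.90 ± 0.907 FPKM in DMDD liposome and 3.48 ± 0.615 FPKM in model. Pycard stood at 4.12 ± 0.264 FPKM in DMDD liposome and 2.30 ± 0.675 FPKM in model, and Nlrp3 at 3.28 ± 0.349 FPKM in DMDD liposome and 2.45 ± 0.298 FPKM in model. The ranges of these 3 over the libraries overlapped, so that no order among them is given. Nlrc4 was lowest, at 0.645 ± 0.215 FPKM in DMDD liposome and 0.439 ± 0.135 FPKM in model, below Nlrp3 in 6 of 6 libraries.

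The place of Pycard in that order rests on the gene length used. The deposited FPKM imply a length of 3800 bases for Pycard, equal to the longer of the 2 Pycard transcripts in GENCODE M21, of which 15.2% is coding. The shorter transcript has 493 bases, fewer than the 579 coding bases of the longer one, so it cannot hold that whole coding sequence. With 493 bases the same counts would stand at 31.7 ± 2.04 FPKM in DMDD liposome and 17.7 ± 5.20 FPKM in model. Both values lie above the Casp4 mean of their group. The files do not show which transcript the reads came from. The length cancels in the comparison of groups. Within each library, the ratio of Casp1 to Pycard FPKM was 16.6, 7.91 and 17.5 in DMDD liposome replicates 1 to 3 and 20.1, 20.3 and 33.4 in model replicates 1 to 3, without overlap. The ratio of Gsdmd to Pycard was 7.67, 7.74 and 8.71 in DMDD liposome and 12.5, 9.77 and 22.4 in model, again without overlap. Both gave p = 0.10 in a two-sided exact permutation test, the smallest that 3 against 3 allows, and an adjusted p = 0.30 over the 6 ratios computed. In the other 4 ratios, Nlrp3 over Pycard, Casp1 over Casp4, Gsdmd over Casp1 and Nlrp3 over Aim2, the groups overlapped (exact permutation p from 0.30 to 0.90). The ratios were chosen with the values of the genes known. Both ratios without overlap have Pycard as the denominator, and Pycard by itself already separated the groups. They therefore restate the gap in Pycard and are not separate evidence for it.

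**Figure D3:**
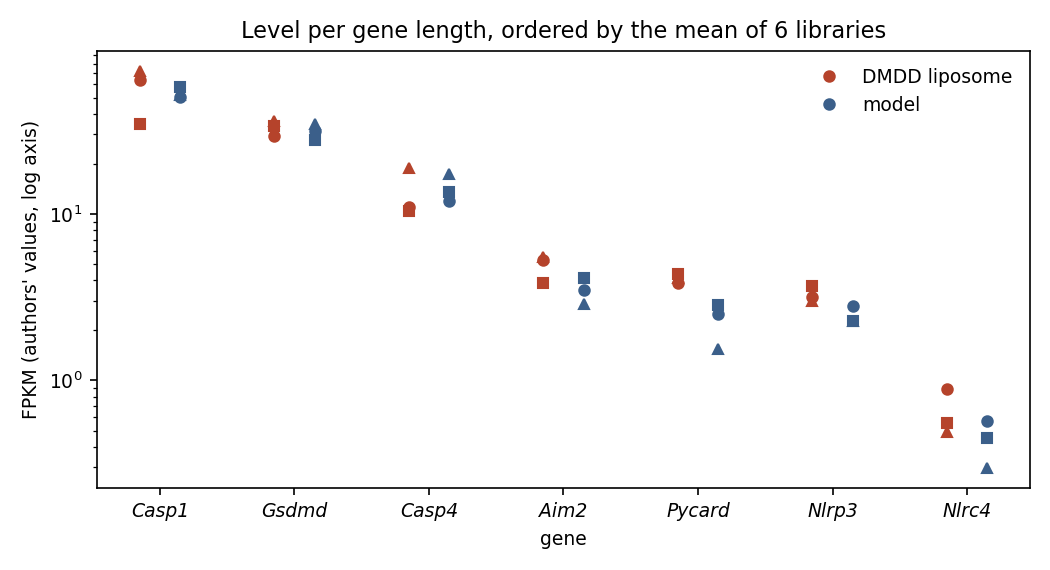
The authors' FPKM of each gene in every library on a log axis, ordered by the mean over 6 libraries, with DMDD liposome points to the left of model points; marker shapes are replicates. Casp1, Gsdmd and Casp4 lie highest, Aim2, Pycard and Nlrp3 share a range of 1.55 to 5.53 FPKM, and Nlrc4 lies below 1 FPKM.

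The gap in Pycard was set beside the level of macrophage and monocyte markers, which separated the groups in the same direction. Of the 15 markers tested, 13 had a log2 fold change above 0, with a median of 0.48. Other lists also leaned to 1 side, although their sums overlapped between the groups. Endothelial markers had 8 of 9 above 0 (median 0.43) and T and NK cell markers 8 of 10 (median 0.72). Epithelial markers had 9 of 11 below 0 (median -0.63). Per 1000 CPM of the macrophage and monocyte markers, Pycard stood at 3.43, 5.46 and 4.65 CPM in DMDD liposome replicates 1 to 3 and at 3.20, 4.59 and 3.72 CPM in model replicates 1 to 3, and the groups overlapped. On the same scale the log2 ratio of the group means was 0.23 for Pycard, -0.24 for Nlrp3, -0.18 for Aim2 and -0.09 for Nlrc4, and the groups overlapped for all 4. Lyz2, the lysozyme gene of myeloid cells, made up 33.1% to 41.8% of the marker sum in DMDD liposome tumors and 20.4% to 34.2% in model tumors. With Lyz2 left out of the sum the values were 0.43 for Pycard, -0.03 for Nlrp3, 0.03 for Aim2 and 0.13 for Nlrc4, so the sign for Aim2 and Nlrc4 rested on that gene, and the groups again overlapped for all 4. For Casp1, Casp4 and Gsdmd the log2 ratio was -0.63, -0.84 and -0.63 with Lyz2 in the sum. Without Lyz2 it was -0.41, -0.62 and -0.40, and the groups overlapped in each case. Model replicate 3 was the lowest library both for the macrophage list (1625 CPM) and for Pycard, Aim2 and Nlrc4. The part of macrophage abundance in these levels was not tested.

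**Figure D4:**
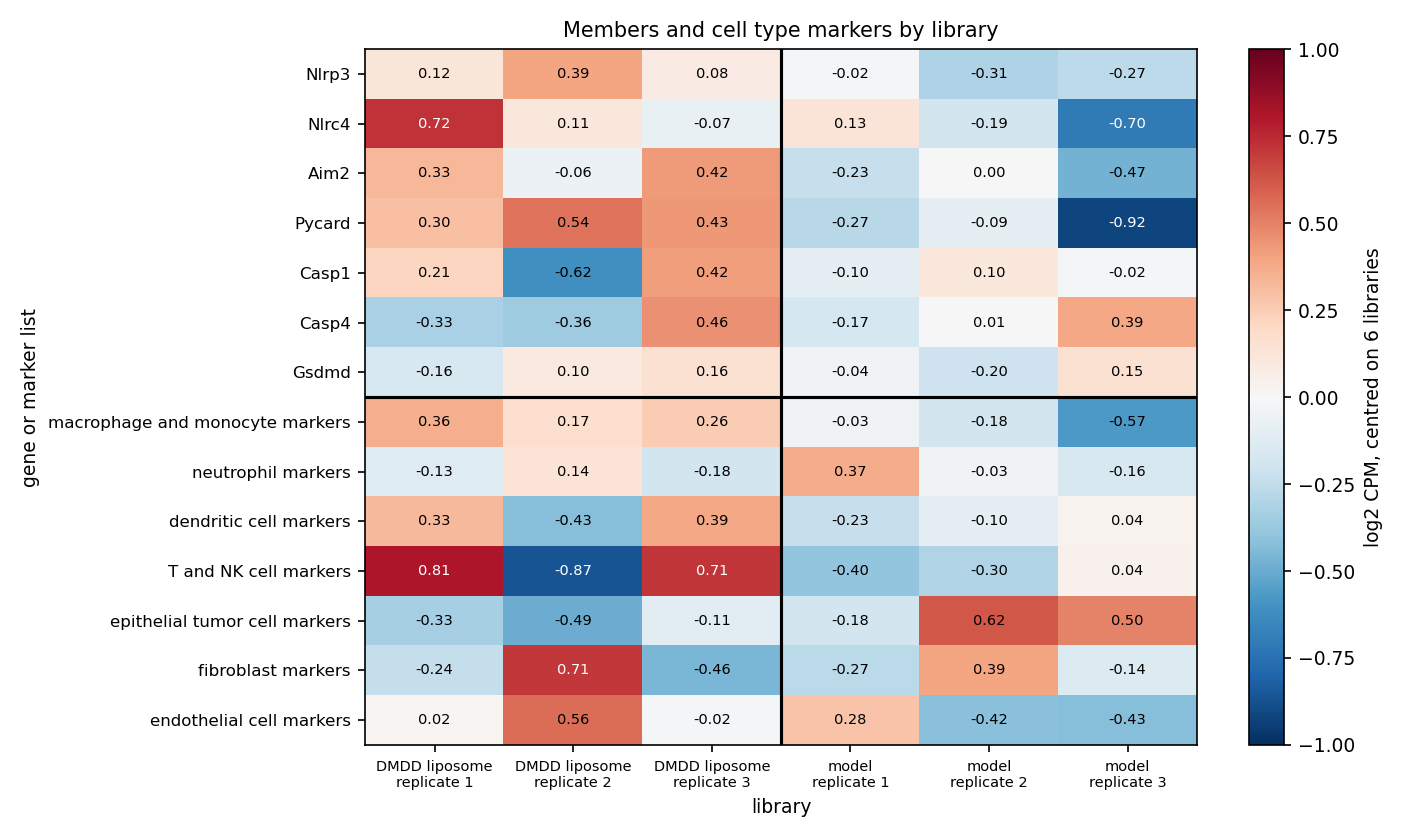
Log2 CPM of the 7 genes (upper rows), and mean log2 CPM of the tested genes of 7 marker lists (lower rows), centred on the 6 libraries, with DMDD liposome libraries on the left and model libraries on the right; colors are capped at 1 in either direction. Pycard, Nlrp3 and the macrophage list are above 0 in all 3 DMDD liposome libraries and below 0 in all 3 model libraries. Casp1 is lowest in DMDD liposome replicate 2 (-0.62), as are the T and NK cell markers (-0.87).

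For each of the 7, the 3 genes with the most similar levels over the 6 libraries were found among 10619 genes of at least 5 CPM, by the root mean square difference of centred log2 CPM. Among those nearest to Pycard was Tfeb (0.12), a transcription factor of lysosome genes. Those nearest to Aim2 were Bcl2a1d (0.06), a BCL2 family gene with near-identical copies, Pik3cg (0.09), a leukocyte lipid kinase gene, and Man2b1 (0.10), a lysosomal mannosidase gene. Casp1 lay nearest to Tmem231 (0.08), a cilium gene, Samd9l (0.09), an interferon-induced gene, and Klrk1 (0.10), which encodes the receptor NKG2D of NK and T cells. For Nlrp3 they were Gch1 (0.05), Trp53inp2 (0.06) and Tyw5 (0.06), and for Nlrc4 Peli2 (0.10), Gpr34 (0.12) and Fam78a (0.13). Those of Casp4 were Styk1 (0.10), Hap1 (0.10) and Oas1c (0.11), and those of Gsdmd Eif5 (0.04), Mcub (0.04) and Pbx3 (0.04). With 6 libraries and so many genes, close matches arise for any gene, and the distances are given as a description.

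Around the 7 genes, 86 further gene symbols of the pathway were listed in 5 groups, of which 79 were in the table and 69 were tested. None passed edgeR's adjusted test (0 higher and 0 lower), and at an unadjusted p under 0.05 edgeR found 4 higher and 1 lower, against 4.34% and 3.31% of all genes tested. DESeq2 also called 0 of them. The share of the 69 at that unadjusted p was 15.9% without model replicate 1, where 16.3% of all genes reached it, and 11.6% without DMDD liposome replicate 2, beside 8.68% of all genes. It was 2.90% without DMDD liposome replicate 1, beside 3.66% of all genes, and 1.45% without model replicate 3, beside 4.79%. Their median log2 fold change was 0.02. The groups did not overlap in CPM for 4 of the 69, Il33, Ripk3, Tlr2 and Tlr4, all higher in DMDD liposome tumors, and 0 separated lower. Over all genes tested, 7.21% separated higher and 5.67% lower.

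Other sensors and their helpers had a median of 0.02 over 13 tested genes, with 7 above 0. Nek7, the kinase that binds NLRP3 and is needed for its assembly, measured 251 ± 14.2 CPM in DMDD liposome and 303 ± 50.9 CPM in model, a log2 fold change of -0.27 ± 0.14 (SE, edgeR adjusted p = 0.676). Mefv, which encodes the sensor pyrin, had 35, 64 and 38 counts in DMDD liposome and 57, 67 and 114 counts in model, a log2 fold change of -0.71 (edgeR adjusted p = 0.679). Nlrp10 had 6 to 19 counts per DMDD liposome library and 9 to 45 per model library. The flagellin receptor partner of NLRC4, Naip5, had 58 to 101 counts in DMDD liposome and 65 to 69 in model, but the split of reads among the similar Naip genes is uncertain. Nlrp1b and Nlrp6 had at most 2 counts in any library.

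Among cytokine substrates and receptors, 7 of 14 genes were above 0. Of the 5 with the smallest p, Il33 was higher in DMDD liposome tumors, and Il1rap, Il1b, Il18rap and Il1rl1 were lower. The log2 fold change was -1.05 for Il18rap and -1.09 for Il1rl1 (edgeR adjusted p = 0.644 and 0.676). Il33, an alarmin cytokine of the interleukin-1 family, had 123, 70 and 54 counts in DMDD liposome replicates 1 to 3 and 41, 31 and 49 counts in model replicates 1 to 3. Its groups did not overlap in CPM, and its log2 fold change was 1.08 ± 0.39 (SE, edgeR adjusted p = 0.626). Il1rap, the shared subunit of interleukin-1 family receptors, measured 29.2 ± 10.2 CPM in DMDD liposome and 57.8 ± 27.7 CPM in model, with overlap and a log2 fold change of -0.98 ± 0.37 (edgeR adjusted p = 0.629). Il1b, a main cytokine substrate of caspase-1, measured 56.1, 70.8 and 69.8 CPM in DMDD liposome replicates 1 to 3 and 87.4, 67.9 and 121 CPM in model replicates 1 to 3. Only model replicate 2 lay within the DMDD liposome range, and the log2 fold change was -0.49 ± 0.21 (edgeR adjusted p = 0.644). Il18, another cytokine substrate, stood at 15.1 ± 3.14 CPM in DMDD liposome and 17.9 ± 2.01 CPM in model. Per length, Il1b was 48.6 ± 5.31 FPKM in DMDD liposome and 67.3 ± 18.6 FPKM in model, above Il18 at 14.8 ± 3.23 FPKM in DMDD liposome and 17.2 ± 1.86 FPKM in model.

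**Figure D5:**
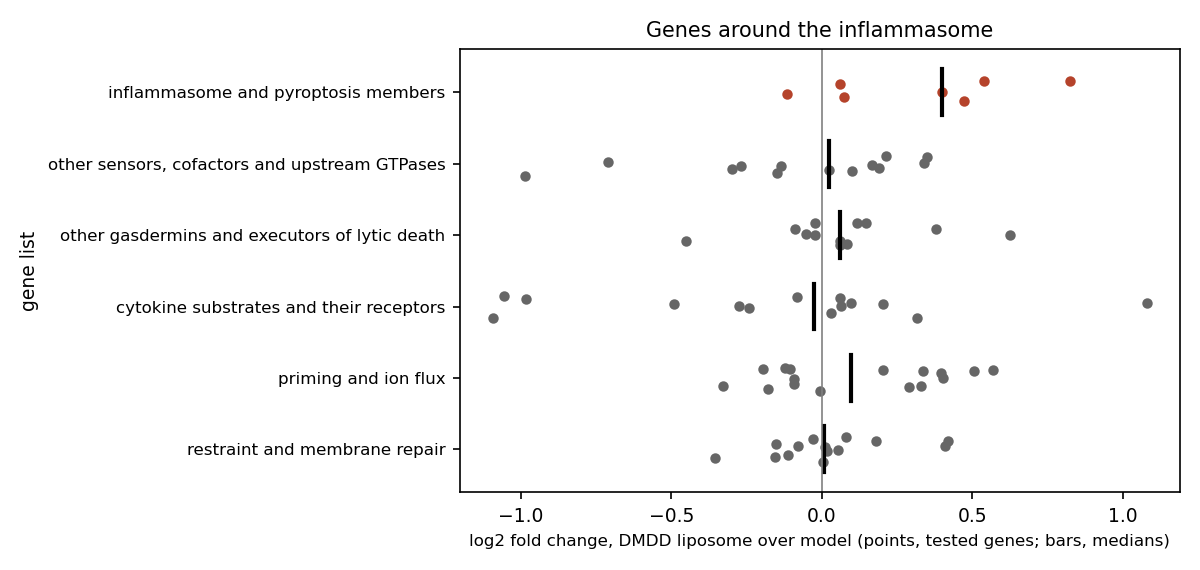
Log2 fold change of DMDD liposome over model for every tested gene of the 7 members (top row) and of 5 lists of related genes; black bars are medians and vertical scatter within a row has no meaning. The medians of the 5 lists lie between -0.03 and 0.10, and that of the 7 members is 0.40.

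Among other gasdermins and lytic death genes, 7 of 12 tested genes were above 0 and the median was 0.06. Ripk3, the kinase of necroptosis, measured 24.4 ± 4.62 CPM in DMDD liposome and 18.7 ± 0.794 CPM in model without overlap (log2 fold change 0.38 ± 0.16, edgeR adjusted p = 0.644). Gzmb, the granzyme B gene, had 476, 220 and 1016 counts in DMDD liposome and 295, 266 and 577 counts in model. Gsdme was measured at 16.2 ± 2.47 CPM in DMDD liposome and 15.5 ± 3.34 CPM in model. The gasdermin genes Gsdma, Gsdma3, Gsdmc, Gsdmc2 and Gsdmc4 had at most 8 counts in any library apart from 35 counts of Gsdmc in model replicate 2, the library with keratinocyte RNA.

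Genes of priming and ion flux had a median of 0.10 over 16, with 8 above 0. Tlr2 and Tlr4, receptors for bacterial lipopeptides and lipopolysaccharide, measured 46.7 ± 1.07 CPM and 43.7 ± 5.07 CPM in DMDD liposome, beside 35.4 ± 7.35 CPM and 34.6 ± 3.81 CPM in model. Neither overlapped between groups, although for Tlr4 the nearest libraries stood at 38.4 CPM in DMDD liposome and 38.1 CPM in model. Their log2 fold changes were 0.40 ± 0.16 and 0.34 ± 0.14 (edgeR adjusted p = 0.630 and 0.641). P2rx4, an ATP-gated channel, stood at 0.29 ± 0.15 (edgeR adjusted p = 0.671). Genes of restraint and membrane repair had a median of 0.01 over 14, where Trim30a, an inhibitor of NLRP3 activation in mouse, stood at 0.41, Chmp3, an ESCRT subunit gene, at -0.15 and Nlrc3, a negative regulator of innate signaling, at 0.42 (edgeR adjusted p from 0.666 to 0.764).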

How the data were processed

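Per the labels' protocols, tumor RNA was isolated with Trizol and an NEBNext Ultra kit was used for the libraries. The deposited table holds unnormalized read counts per gene, FPKM and a normalized signal which the authors obtained as counts over 1 size factor per library. It also holds the authors' log2 fold changes, taken as model over DMDD liposome, and their p-values and adjusted p-values. The submitters' processing notes name DESeq2 and build mm9. Not given in the sources used here are the aligner, the counting tool, its annotation and whether it used strand. Of 16763 symbols, 16723 matched a mouse gene name table.

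Counts were tested with edgeR 4.0.16 in R 4.3.3. Low genes were removed with filterByExpr (minimum count 10, total 15), and the rest were scaled by TMM and compared by the two-sided quasi-likelihood test over 6 libraries, with Benjamini-Hochberg adjustment over 12891 genes at 0.05. Standard errors came from the F statistic. Log2 CPM for centring used a prior count of 2. The members and lists were chosen with earlier results of these data known. The pathway genes named were the 3 with the smallest p per list, and others named were chosen after their values were seen. A few genes picked by either rule are not reported here. The test scripts were checked on simulated data. Alternatives were DESeq2 size factors, no filter, DESeq2 1.42.0, a replicate block and leaving out each library; DESeq2 without each library, and a macrophage marker sum without Lyz2, were added after seeing the data.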

Additional observations from a re-analysis of the deposited data

How the results depend on the processing

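None of the 7 genes was called in any of the 16 alternatives run. All 16 kept the direction of Pycard, Nlrp3, Aim2 and Nlrc4. Over those alternatives the log2 fold change ran from 0.60 to 0.996 for Pycard (adjusted p from 0.0819 to 0.999), from 0.29 to 0.50 for Nlrp3, from 0.35 to 0.60 for Aim2 and from 0.24 to 0.76 for Nlrc4. The sign turned when single libraries were left out for Casp1 (from -0.15 to 0.32 over edgeR and DESeq2), Casp4 (from -0.45 to 0.047) and Gsdmd (from -0.034 to 0.15). Without DMDD liposome replicate 2, Casp1 had an unadjusted edgeR p of 0.0413. Over all genes edgeR called 0 and found 986 at an unadjusted p under 0.05, DESeq2 called 59, and leaving out 1 library gave 0 to 112 calls by edgeR and 18 to 867 by DESeq2, the highest of both without model replicate 1. In that DESeq2 fit 4 pathway genes were called (0 in the other 5 fits that left out a library), among them Tlr2 at 0.56 and Il1rap and Il18rap at -1.23 and -1.45; the cause was not tested. With the replicate block edgeR called 0 members, 0 pathway genes and 0 of all genes, and Pycard stood at 0.86. Same-numbered libraries correlated at 0.0876, 0.114 and 0.121 in their deviations from the group means. Each library correlated best with its own number, but these correlations were small, and whether they exceed chance was not tested. The labels give these libraries only a shared number and do not state whether they are pairs. Leaving Lyz2 out of the macrophage marker sum, an alternative chosen after seeing the data, moved the log2 ratio of Nlrc4 per marker to 0.13 and that of Aim2 to 0.03. Nlrc4 had the fewest counts of the 7, 22 to 58, and counting error was not separated from the spread between its libraries.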

Other observations

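The gene lengths implied by the deposited FPKM equal the longest GENCODE M21 transcript, within 0.5 base, for 7327 of 16720 genes with both values (43.8%), and Nlrc4, Aim2, Pycard, Casp1 and Gsdmd are among them. GENCODE M21 annotates build GRCm38, whereas the submitters' processing notes name mm9. For Casp4 the implied length is 1435 bases, against 1901 bases for its longest GENCODE transcript and 3710 bases for all its GENCODE exons joined. With 3710 bases its FPKM would be lower, at 5.18 ± 1.80 in DMDD liposome and 5.52 ± 1.05 in model (SD, n = 3 each). With 1901 bases it would be lowered less, and those values are not given. Rescaled to 3710 bases while the other genes were not rescaled, Casp4 lay below the deposited Gsdmd FPKM in 6 of 6 libraries. It lay above the deposited Aim2 FPKM in 5 of 6, the exception being DMDD liposome replicate 1 (4.27 for Casp4 and 5.30 for Aim2).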
